A study of Mus musculus with 40 samples.

Results

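The diet effect under drug was examined in adipose tissue of C57BL/6J mice that the labels call visceral, by comparing 5 libraries of mice on a high-fat diet with drug (HFD+drug) with 5 libraries of mice on a normal diet with drug (normal+drug). These 10 libraries were chosen by their tissue and treatment labels from the 40 of the series, and 6824 genes that reached 10 TPM in at least 5 of the 10 were tested. TPM, taken here as the unit of the deposited values, is a read count per base of gene length scaled to a fixed total for each library. Both groups received the drug; the series description gives it as beta-carotene, an orange plant pigment from which vitamin A can be formed, and places visceral fat at the epididymis. Libraries of the same tissue label from mice without drug, 5 on a high-fat diet (HFD) and 5 on a normal diet (normal), served to ask how much of the diet response was left when both sides received the drug. The labels give no dose, duration or age. They do not tie libraries to separate animals, and p-values therefore measure only the spread between these libraries. Libraries are named by the number in their titles: 25, 26, 27, 54 and 62 for HFD+drug, and 2, 5, 6, 8 and 9 for normal+drug, and values are given in that order.

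White fat stores surplus energy as triglyceride. Fatty acids reach the fat cell from the blood or are made there by fatty acid synthase, are activated by acyl-CoA synthetases, and are joined to glycerol by a series of acyltransferases. Stored fat is released by lipolysis, which catecholamines stimulate and insulin restrains. As fat cells enlarge on a high-fat diet they are known to raise Lep, which encodes the satiety hormone leptin, and a set of expansion genes such as Sfrp5, Npr3 and Mest.

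Markers went against the depot label. Shox2, Tbx15 and Hoxc10, positional genes of inguinal (subcutaneous) fat, had medians of 13.5, 2.37 and 34.96 TPM in HFD+drug and 10.01, 1.79 and 32.1 TPM in normal+drug libraries. Upk3b, Wt1 and Msln, which mark the mesothelial lining of epididymal fat, stayed at or below 0.732 TPM in HFD+drug and 0.637 TPM in normal+drug libraries. The tissue is therefore called fat labelled visceral. Fat cell genes were abundant: Adipoq, which encodes adiponectin, was at 937.5 to 2217 TPM in HFD+drug and 919.5 to 1926 TPM in normal+drug libraries.

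Transcripts of other tissues were unevenly spread. B cell and plasma cell genes together made up 161 to 15510 TPM in HFD+drug and 352 to 17600 TPM in normal+drug libraries, and was over 1000 TPM in libraries 25, 26 and 27 and in libraries 5, 6, 8 and 9. A skeletal muscle list summed to 97.8 to 25250 TPM (median 251) in HFD+drug and 899 to 12810 TPM (median 1257) in normal+drug libraries. HFD+drug library 62 stood apart, with the highest muscle sum and 40.5% of TPM from mitochondrially encoded genes, against 22.7 to 31.6% in the other 9. Estimated depth was 5.75 to 6.19 M reads in HFD+drug and 6.37 to 7.66 M reads in normal+drug libraries, without overlap; the estimate is rough, as 29.9 to 33.4% of low values were whole multiples of 1 read (within 2%).

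**Figure D1:**
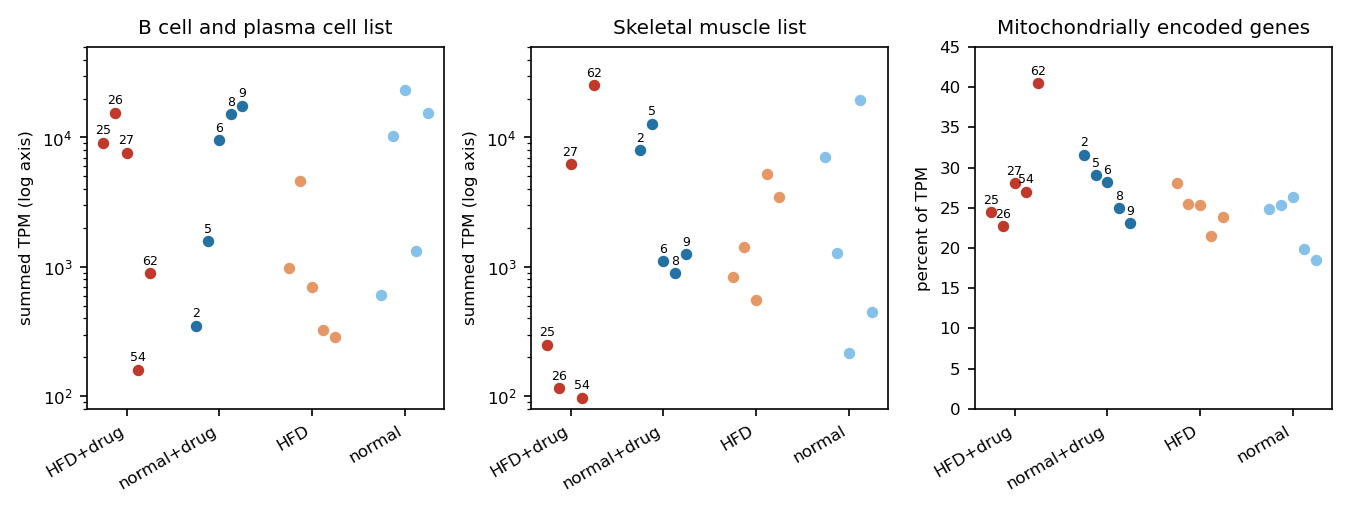
Summed TPM of the B cell and plasma cell list and of the skeletal muscle list (log axes), and the percent of TPM from mitochondrially encoded genes, in each library of the 4 groups in fat labelled visceral. Each point is 1 library, numbered for the groups with drug; HFD+drug library 62 is highest in muscle transcripts (25250 TPM) and in mitochondrially encoded genes (40.5%).

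The first comparison asked what a high-fat diet changed when both groups received the drug. Acsl1, which activates fatty acids, and Gpam, Gpat3 and Dgat1, which join them to glycerol, were lower in HFD+drug libraries, as were Fasn, which encodes fatty acid synthase, and Vegfa, a growth factor for blood vessels, while the NADP-dependent isocitrate dehydrogenases Idh2 and Idh1 were higher. Of the 6824 genes, 75 (1.1%) passed an adjusted p of 0.05 with limma; 8 were higher (0.117%) and 67 lower (0.982%). At an unadjusted p under 0.05 there were 866 genes (12.7%). The groups did not overlap in 224 genes (3.28%), 58 higher (0.85%) and 166 lower (2.43%). In the bulk tissue, fewer cells of a type and less RNA per cell cannot be told apart.

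The number of genes called depended on single libraries. It was 26 without normal+drug library 2, 28 without library 8 and 33 without library 6 of that group, and 31, 45 and 46 without HFD+drug libraries 25, 26 and 27. It was 113 without normal+drug library 5 (35 higher, 78 lower) and 129 without HFD+drug library 62 (50 higher, 79 lower). Of the 75 genes, 23 were called in every one of the 10 fits that left out 1 library, and all 75 had the same direction in every fit that gave them a value. The split also moved with scaling: it was 14 higher and 27 lower after quantile normalization, 17 and 39 with mitochondrially encoded genes removed, 34 and 63 with mitochondrially encoded, muscle and lymphocyte genes removed, and 2 and 3 with library medians made equal.

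**Figure D2:**
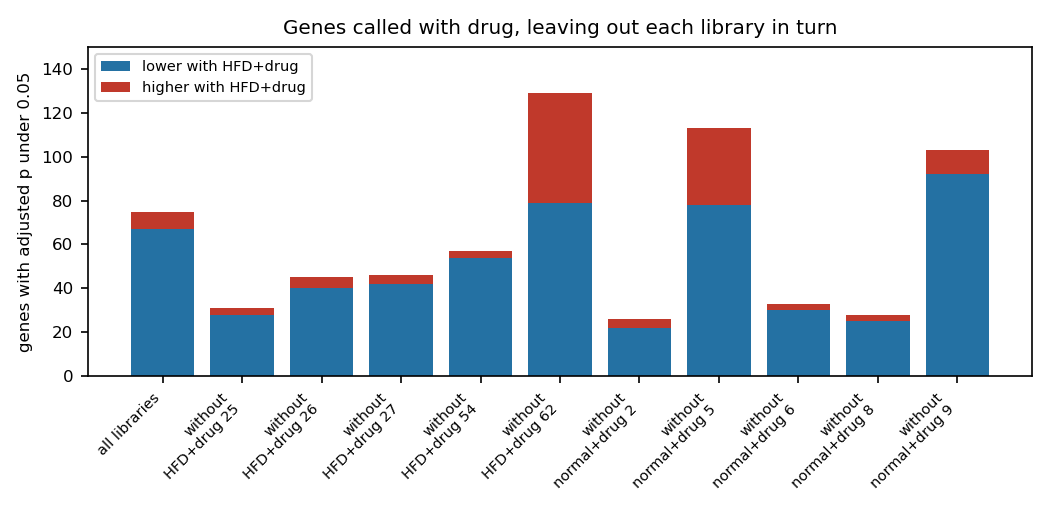
Number of genes with an adjusted p under 0.05 for HFD+drug against normal+drug, with all libraries and with each library left out in turn; blue bars count genes lower and red bars genes higher in HFD+drug. The total is 75 with all libraries and runs between 26 without normal+drug library 2 and 129 without HFD+drug library 62.

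Among the 67 genes called lower, 27 fell by more than 1 on the log2 scale. Acot4, a peroxisomal enzyme that removes coenzyme A from succinyl-CoA and related dicarboxylic acids, had the smallest p; it is named after its values were seen. It was at 5.65, 5.25, 11.03, 4.05 and 9.71 TPM in HFD+drug libraries, against 59.7, 36.0, 37.7, 54.5 and 25.9 TPM in normal+drug libraries. Every HFD+drug library was well below every normal+drug library, but in HFD+drug only library 27 reached the filter's 10 TPM. The filter therefore favoured this difference. The log2 change was -2.45 (SE 0.33, adjusted p = 0.00368), and without drug it was -2.53 (SE 0.32).

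The promoters of 3 genes are shown as examples. That of Gpat3, also looked up, held no CCAAT or CACGTG match and is not shown. Acot4 was lower with and without drug, Fasn was called lower with drug only, and Idh2 was higher with and without drug. Sequences are RefSeq's for GRCm38.p6, 250 bases before to 50 after the annotated start, on the strand of the gene: Acot4 at chr12:84038129-84038428 (plus strand), Fasn at chr11:120824498-120824797 (minus strand) and Idh2 at chr7:80115301-80115600 (minus strand). Capitals mark matches to CCAAT or CACGTG (an E-box) on either strand, and a run such as CCAATTGG holds a match on each strand that overlap.
Acot4: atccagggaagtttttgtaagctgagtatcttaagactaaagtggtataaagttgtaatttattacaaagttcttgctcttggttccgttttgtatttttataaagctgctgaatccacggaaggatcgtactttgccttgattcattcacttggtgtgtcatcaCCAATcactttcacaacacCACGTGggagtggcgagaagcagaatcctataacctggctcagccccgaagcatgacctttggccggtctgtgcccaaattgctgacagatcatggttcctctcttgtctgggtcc
Fasn: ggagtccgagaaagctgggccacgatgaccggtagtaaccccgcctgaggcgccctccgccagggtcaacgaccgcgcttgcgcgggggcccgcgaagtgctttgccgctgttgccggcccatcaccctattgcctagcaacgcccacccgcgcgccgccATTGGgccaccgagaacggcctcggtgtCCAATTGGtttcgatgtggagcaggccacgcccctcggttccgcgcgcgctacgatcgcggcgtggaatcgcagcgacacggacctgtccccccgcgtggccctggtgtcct
Idh2: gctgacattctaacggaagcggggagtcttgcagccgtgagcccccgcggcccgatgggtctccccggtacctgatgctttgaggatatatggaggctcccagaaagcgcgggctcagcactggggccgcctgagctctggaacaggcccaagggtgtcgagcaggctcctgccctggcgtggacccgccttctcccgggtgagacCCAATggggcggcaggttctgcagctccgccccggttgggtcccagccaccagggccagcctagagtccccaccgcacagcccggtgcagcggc
Promoters in the table matched 56 of the 75 called genes. CCAAT was found in 44.3% of the 70 promoters of genes called lower and in 37.2% of the 6020 promoters of tested genes, and CACGTG in 11.4% and 10.4%. A sterol regulatory element, TCACNCCAC, was found in 3 of the 70 promoters (4.29%) and in 1.23% of those of tested genes. These matches describe letters in a window, and no test was made of them.

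Of 11 tested genes of triglyceride synthesis and glycerol supply, Gpam, Gpat3 and Dgat1 fell and none rose, where 0.982% of all tested genes fell and 0.117% rose. The list's median log2 change was -0.49, against -0.02 over all genes tested. Gpam, the mitochondrial acyltransferase of the first step, was at 15.7, 14.3, 24.0, 20.3 and 26.6 TPM in HFD+drug libraries, against 105.7, 41.2, 50.6, 64.2 and 47.6 TPM in normal+drug libraries. The groups did not overlap, and normal+drug library 2 was the highest of all (log2 change -1.52, SE 0.26, adjusted p = 0.010). Dgat1, which adds the last fatty acid, was at 94.9, 97.1, 158.7, 181.5 and 97.0 TPM in HFD+drug libraries, against 356, 264, 260, 305 and 206 TPM in normal+drug libraries. Again no library of either group reached the other (log2 change -1.17, SE 0.21, adjusted p = 0.0128). Gpat3, an acyltransferase of the endoplasmic reticulum that acts at the first step, was at 7.36, 7.07, 24.3, 12.3 and 3.44 TPM in HFD+drug libraries, against 43.6, 33.9, 28.2, 39.4 and 14.4 TPM in normal+drug libraries. These groups overlapped, since HFD+drug library 27 exceeded normal+drug library 9 (log2 change -1.63, SE 0.36, adjusted p = 0.0331). The calls of Gpam and Dgat1 held without any 1 of the 10 libraries. That of Gpat3 ended without HFD+drug library 25 or 26 or normal+drug library 2, 6 or 8 (adjusted p up to 0.115). With the compared groups fitted alone, 8 of the 75 called genes stayed called, and with library medians made equal, 4 did. Neither fit left 2 called members in any list, so at most 1 of Gpam, Gpat3 and Dgat1 stayed called in each. Dgat2, which catalyses the same last step as Dgat1, averaged 57.7 ± 31.3 TPM in HFD+drug and 51.7 ± 15.99 TPM in normal+drug libraries (SD, n = 5 each; log2 change 0.05, adjusted p = 0.988). Pck1, which supplies glycerol phosphate, averaged 4536 ± 1299 and 6540 ± 1699 TPM in the same order (log2 change -0.52, adjusted p = 0.444).

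Of 14 genes of fatty acid uptake, Acsl1 and Slc27a1 fell and none rose (0.982% and 0.117% over all tested genes), while the list's median was 0.19. Acsl1, the main long-chain acyl-CoA synthetase of fat cells, was at 87.8, 116, 288, 217 and 117 TPM in HFD+drug libraries, against 608, 411, 419, 603 and 233 TPM in normal+drug libraries. HFD+drug library 27 lay above normal+drug library 9, the lowest of its group (log2 change -1.52, SE 0.30, adjusted p = 0.0162). Slc27a1, the fatty acid transport protein FATP1, averaged 394 ± 85 TPM in HFD+drug and 751 ± 200 TPM in normal+drug libraries, without overlap (log2 change -0.92, SE 0.22, adjusted p = 0.0478). The call of Acsl1 ended without HFD+drug library 25 or normal+drug library 2 or 8 (adjusted p up to 0.0661). That of Slc27a1 ended without any of HFD+drug libraries 25, 26, 27 and 62 and normal+drug libraries 2, 6 and 8 (adjusted p up to 0.15).

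In the lipolysis and lipid droplet list, 2 of 18 members fell and none rose (0.982% and 0.117% over all tested genes; median -0.27). Pde3b, the phosphodiesterase through which insulin restrains lipolysis, averaged 33.5 ± 9.1 TPM in HFD+drug and 63.2 ± 13.8 TPM in normal+drug libraries, with overlap (log2 change -0.90, SE 0.21, adjusted p = 0.0376). Its call ended in 7 of the 10 fits that left out a library: without HFD+drug library 25, 26 or 62 and without normal+drug library 2, 5, 6 or 8 (adjusted p up to 0.126). The lipases Pnpla2 and Lipe, named after their values were seen, had log2 changes of -0.19 and -0.09 (adjusted p = 0.84 and 0.92).

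Fasn was the only called gene among 15 lipogenesis genes, whose median was -0.27 (1.1% of all tested genes were called). It was at 106, 75.9, 152, 121 and 163 TPM in HFD+drug libraries, against 274, 385, 721, 349 and 882 TPM in normal+drug libraries. The HFD+drug libraries all lay below the lowest normal+drug library, and normal+drug libraries 6 and 9 were far above the other 3 of their group. The log2 change was -1.98 (SE 0.38, adjusted p = 0.0156). Its adjusted p was 0.0528 without normal+drug library 6, 0.056 with no filter on low values, 0.0511 with library medians made equal and 0.0711 with the groups fitted alone. Without the libraries over 1000 TPM in the B cell list, which include normal+drug libraries 6 and 9 and leave 2 HFD+drug and 1 normal+drug library, the log2 change was -0.96 (adjusted p = 0.9995). Scd1, the desaturase that acts on the products of fatty acid synthesis, averaged 19460 ± 3719 TPM in HFD+drug and 18140 ± 6733 TPM in normal+drug libraries (log2 change 0.15, adjusted p = 0.915).

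Of 24 genes of the TCA cycle and mitochondrial metabolism, Idh2 rose and Pcx, Bcat2 and Hsd17b10 fell, where 0.117% of all tested genes rose and 0.982% fell. The others did not pass, and the list's median was -0.08. Idh2, the mitochondrial isocitrate dehydrogenase that makes NADPH, was at 50.5, 47.2, 46.6, 56.1 and 61.4 TPM in HFD+drug libraries, against 25.9, 35.5, 28.7, 23.5 and 26.2 TPM in normal+drug libraries. The groups were far apart relative to their spread (log2 change 0.89, SE 0.13, adjusted p = 0.00564), and the call held without any 1 library. Pcx, pyruvate carboxylase, was at 32.1, 21.2, 41.9, 48.2 and 33.1 TPM in HFD+drug libraries, against 61.99, 73.5, 76.7, 77.9 and 58.8 TPM in normal+drug libraries. It did not overlap between groups (log2 change -1.01, SE 0.20, adjusted p = 0.0195), and its call ended without HFD+drug library 25 or normal+drug library 6 or 8 (adjusted p up to 0.069). Bcat2, which removes the amino group of branched-chain amino acids, averaged 51.1 ± 15.02 TPM in HFD+drug and 109 ± 36 TPM in normal+drug libraries (log2 change -1.07, SE 0.24, adjusted p = 0.0347). Hsd17b10, a mitochondrial dehydrogenase of isoleucine breakdown named after its values were seen, averaged 322 ± 69 and 585 ± 158 TPM in the same order (log2 change -0.85, SE 0.19, adjusted p = 0.0376). Bcat2 and Hsd17b10 overlapped between groups, and both calls ended without HFD+drug library 25, 26 or 27 or normal+drug library 2, 6 or 8 (adjusted p up to 0.126). None of 47 nuclear-encoded oxidative phosphorylation genes was called (median -0.03), nor any of 19 fatty acid oxidation genes (median 0.08).

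The 8 genes called higher had groups that did not overlap. The same held for 58 of the 75 called genes, and for 0.85% of all tested genes in that direction. Calls and overlap come from the same values, so this is not a further result. Calm3, a calmodulin gene, averaged 150 ± 16 TPM in HFD+drug and 101 ± 17 TPM in normal+drug libraries (log2 change 0.58, SE 0.13, adjusted p = 0.0427). Prr32 was at 43.3, 28.2, 68.7, 16.1 and 16.6 TPM in HFD+drug libraries, against 2.30, 9.24, 4.10, 0.888 and 3.16 TPM in normal+drug libraries. Of the 75 called genes, it alone reached 10 TPM in every library of 1 group and in none of the other. Its difference (log2 change 2.86) was therefore favoured by the filter and is given as a description. The filter also favoured called genes that rarely reached 10 TPM in their lower group. Acot4 did so there only in HFD+drug library 27, and Maged2 only in normal+drug library 5. Other genes called higher were named after their values were seen. They were Idh1, the cytosolic relative of Idh2 (log2 change 0.86), the glutathione transferase Gstt1 (0.94), Maged2 (1.24) and Flot1, a membrane raft protein (0.84). Calls of Idh2 and Maged2 held without any 1 library. That of Idh1 ended in 4 of 10 such fits, those of Calm3 and Flot1 in 7, and that of Gstt1 in 8.

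Of the 75 called genes, 61 were in no gene list. The largest decreases without overlap at a mean of at least 50 TPM included some of these. Vegfa was at 121, 83.4, 113, 125 and 163 TPM in HFD+drug libraries, against 323, 289, 252, 378 and 175 TPM in normal+drug libraries. Library 62, the highest of HFD+drug, was just below library 9, the lowest of normal+drug (log2 change -1.21, SE 0.23, adjusted p = 0.013). Tst, a mitochondrial sulfurtransferase, averaged 36.6 ± 14.6 TPM in HFD+drug and 108 ± 37 TPM in normal+drug libraries (log2 change -1.56, SE 0.30, adjusted p = 0.0162). Ppp1r1a, an inhibitor of protein phosphatase 1, averaged 44.9 ± 14.1 and 104 ± 23 TPM in the same order (log2 change -1.22, SE 0.21, adjusted p = 0.00935). Gde1, a glycerophosphodiester phosphodiesterase, had a log2 change of -1.14, Apmap, a membrane protein of fat cells, one of -1.13, and Car5b, a mitochondrial carbonic anhydrase, one of -1.01 (adjusted p = 0.013, 0.0128 and 0.03). These 6 genes were taken from those without overlap between groups, so their lack of overlap is not a result. The calls of Vegfa, Ppp1r1a, Gde1 and Apmap held without any 1 library. That of Tst ended without HFD+drug library 25 or normal+drug library 2 or 8, and that of Car5b without HFD+drug library 25 or 26 or normal+drug library 2, 6 or 8 (adjusted p up to 0.109).

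**Figure D3:**
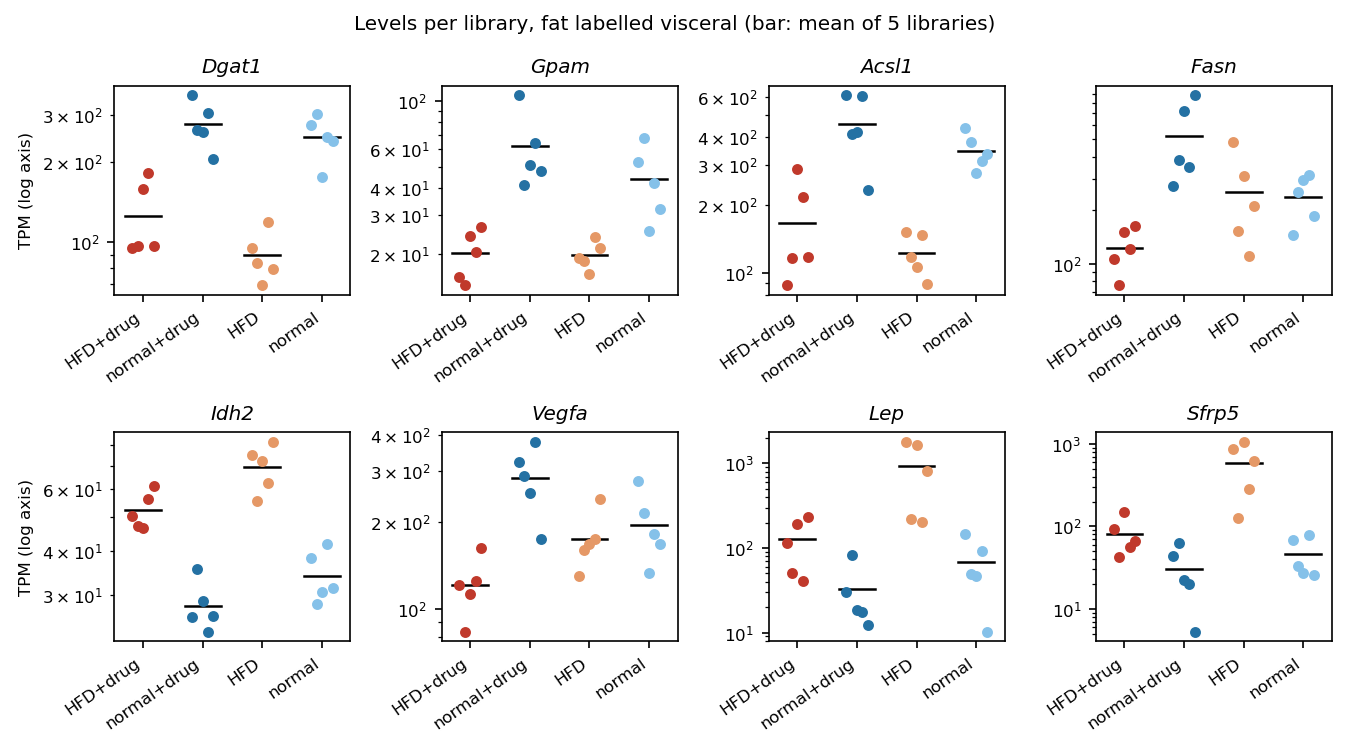
TPM (log axis) of 8 genes in each library of HFD+drug, normal+drug, HFD and normal, with the mean of 5 libraries as a bar. Dgat1, Gpam and Acsl1 are lower and Idh2 higher with HFD in both pairs; Fasn and Vegfa differ in the pair with drug (means 124 and 522 TPM for Fasn, 121 and 284 TPM for Vegfa), and Lep and Sfrp5 reach their highest levels in HFD without drug (means 937 and 594 TPM).

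Lists of matrix and immune cell genes held no called gene with drug, where 1.1% of all tested genes were called, so lists of this size say little by that count. Of 38 extracellular matrix genes, 36 had a positive log2 change (median 0.51), where 46.1% of all tested genes were positive, but none passed or had groups that did not overlap. Col1a1, for a chain of type I collagen, stood at 632, 177, 406, 704 and 231 TPM in HFD+drug libraries, against 391, 534, 163, 169 and 80.4 TPM in normal+drug libraries. The groups overlapped widely (log2 change 0.79, SE 0.53, adjusted p = 0.579). None of 18 general macrophage genes (median 0.33), 18 lipid-associated macrophage genes (0.24), 10 MHC class II genes (0.28) or 15 T cell genes (0.30) passed. Trem2 and Itgax, markers of lipid-associated macrophages, and the macrophage marker Adgre1 were below the filter, at means of 6.83, 7.23 and 4.93 TPM in HFD+drug and 3.36, 5.97 and 2.86 TPM in normal+drug libraries (adjusted p of 0.631 or more with no filter). Ccl2, which attracts monocytes, averaged 21.0 ± 13.5 and 17.98 ± 6.80 TPM in the same order (log2 change 0.07, adjusted p = 0.987).

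All 14 tested skeletal muscle genes were lower in HFD+drug libraries (median -1.81) and none passed, the groups of that list overlapping through HFD+drug libraries 27 and 62. With the muscle list as a covariate, 49 genes were called, among them 46 of the 75. With the B cell list as a covariate, 210 genes were called (62 higher, 148 lower), among them all 75. Without the libraries over 10000 TPM in the muscle list (HFD+drug 62, normal+drug 5 and normal 98), an alternative chosen after the values were seen, 212 genes were called (128 higher, 84 lower), among them 61 of the 70 that could be tested.

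**Figure D4:**
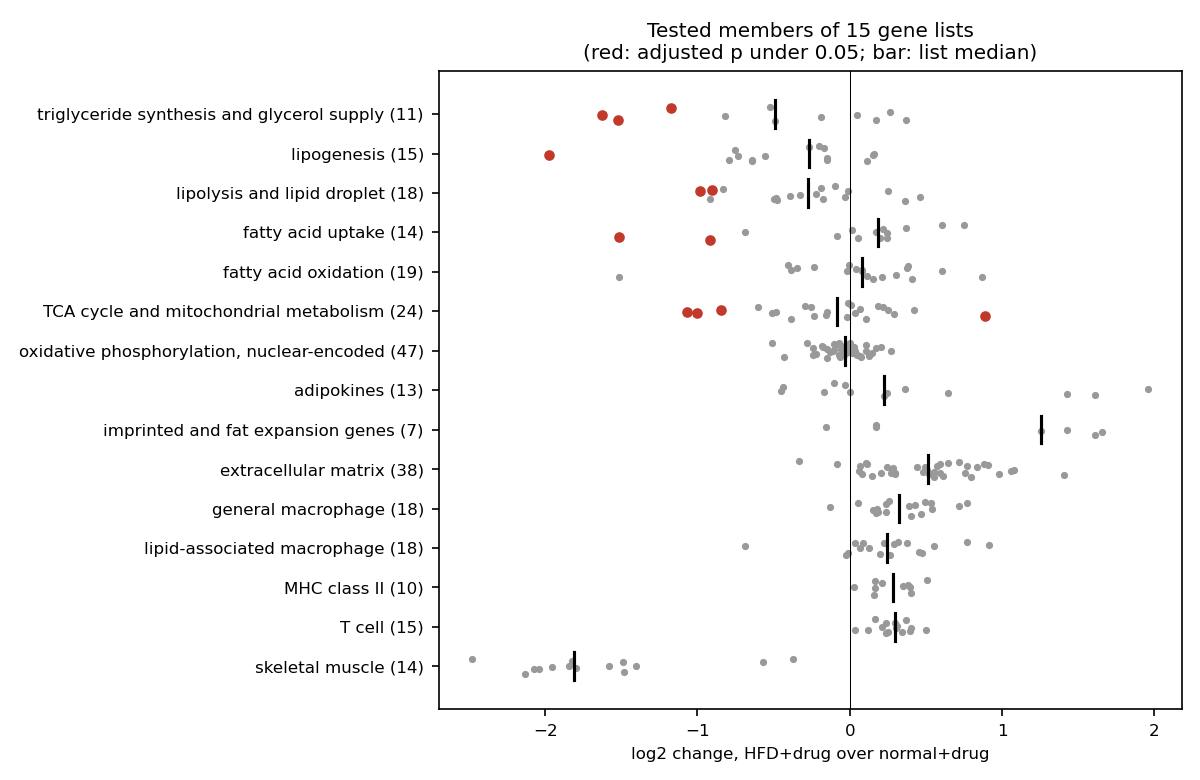
Log2 change, HFD+drug over normal+drug, of the tested members of 15 gene lists; each point is 1 gene, red where its adjusted p was under 0.05, and the bar is the list's median (number of tested members in brackets). The called genes drawn lie in 5 of these lists, all of lipid or mitochondrial metabolism. Of the 75 called genes, 61 are in no list and are not drawn. The lists of cholesterol synthesis (Pmvk called) and of antioxidant and selenium genes (Gstt1 called) are not drawn either. The extracellular matrix list has a median of 0.51 with no called gene.

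Genes of carotenoid and retinoid handling did not pass with drug in either direction. None of 11 tested members was called (median 0.21). As 1.1% of all tested genes were called, a list of this size says little by that count. The carotenoid cleavage enzymes Bco1 and Bco2 were below the filter, at means of 0.0231 and 1.10 TPM in HFD+drug and 0.0167 and 0.83 TPM in normal+drug libraries. Rarb, a retinoic acid receptor, was at 0.0191 and 0.0247 TPM in the same order, too low to compare at this depth. Cyp26b1, which degrades retinoic acid, averaged 11.5 ± 4.4 and 13.1 ± 3.2 TPM (log2 change -0.23, adjusted p = 0.855). Of 25 antioxidant and selenium genes, Gstt1 was called; Gpx3, a secreted glutathione peroxidase, averaged 1052 ± 238 TPM in HFD+drug and 1008 ± 321 TPM in normal+drug libraries (log2 change 0.10, adjusted p = 0.976).

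The second comparison asked how much of the diet response seen without drug was left with drug. The pairs with and without drug share no library. Without drug, 693 of 7760 genes (8.93%) were called for HFD against normal, 489 higher (6.3%) and 204 lower (2.63%). Of these 693 genes, 655 (94.5%) had the same direction with drug, and 615 passed the filter on low values there. With drug, 44 of the 693 (6.35%) were also called, and none was called in the opposite direction. For the 489 genes higher without drug, the median log2 change was 0.29 with drug and 0.69 without, and 8 were also called with drug (1.64%). For the 204 genes lower without drug, the median was -0.47 with drug and -0.79 without, and 36 were also called (17.6%). These genes were selected by their change without drug, and the medians are not corrected for that selection.

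Seen the other way, 44 of the 75 genes called with drug (58.7%) were also called without drug, including all 8 that were higher. The median log2 change of the 75 genes was -0.89 with drug and -0.53 without. They were selected by their change with drug, and the medians are not corrected for that selection. Over the 6824 genes, 71.6% had the same direction in both comparisons, and Pearson's r of the log2 changes was 0.448, a description across genes of the same libraries. The number called without drug also moved with single libraries, between 245 without HFD library 50 and 1017 without HFD library 23. It was 269 without HFD library 22 and 326, 360 and 357 without normal libraries 94, 96 and 99. B cell transcripts differed more in that pair than with drug: the list summed to 289 to 4600 TPM in HFD and 602 to 23150 TPM in normal libraries, and its 16 tested members had a median log2 change of -2.76 without drug and 0.08 with drug. With the B cell list as a covariate, 569 genes were called without drug.

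**Figure D5:**
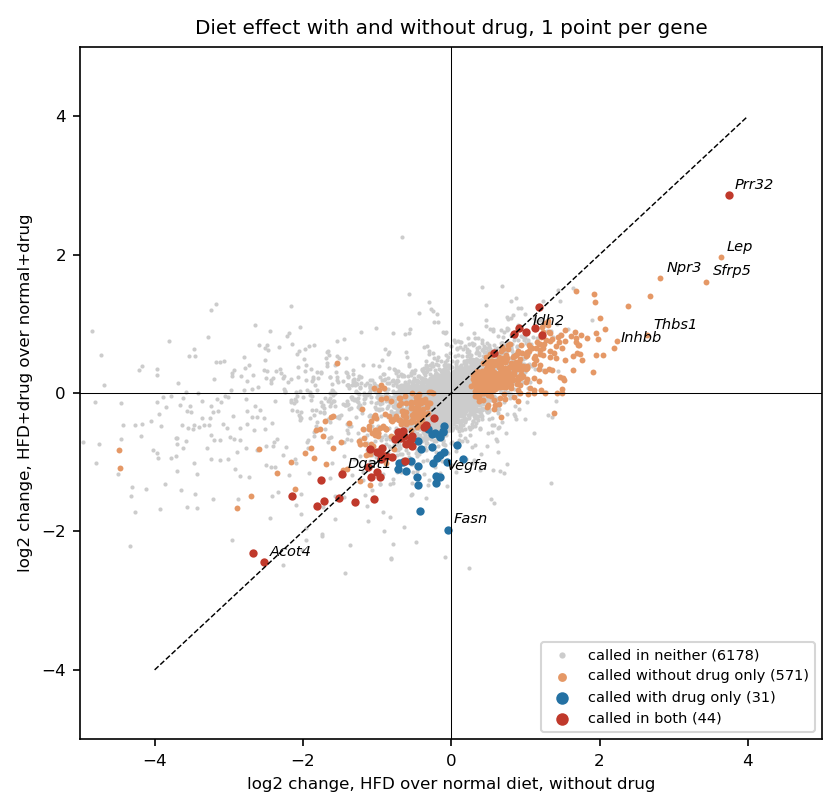
Log2 change with drug (HFD+drug over normal+drug, vertical) against log2 change without drug (HFD over normal, horizontal) for the 6824 genes tested with drug, 3 of which lie outside the axes; the dashed line marks equal changes. Of these genes, 44 were called in both comparisons, 31 with drug only and 571 without drug only; Lep, Sfrp5, Npr3, Inhbb and Thbs1 lie below the dashed line.

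The difference between the diet effects was tested directly as the drug-by-diet interaction. No gene of 7760 passed with limma (0%; smallest adjusted p = 0.73), and 409 genes (5.27%) had an unadjusted p under 0.05. A gene called in 1 pair and not in the other is therefore not shown to differ between them. With libraries weighted by their estimated quality, the interaction had 178 called genes, 31 positive and 147 negative.

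Genes of fat cell expansion had large diet changes without drug and smaller, uncalled ones with drug. Lep was at 114, 50.5, 191, 41.2 and 235 TPM in HFD+drug libraries, against 30.4, 83.6, 18.4, 17.7 and 12.2 TPM in normal+drug libraries. Normal+drug library 5 lay within the range of the HFD+drug libraries, so the groups overlapped. The log2 change was 1.96 with drug (SE 0.78, adjusted p = 0.272) and 3.64 without (SE 0.78, adjusted p = 0.00878), where Lep averaged 937 ± 760 TPM in HFD and 68.7 ± 51.7 TPM in normal libraries. The interaction was -1.68 with a 95% confidence interval of -3.99 to 0.64. In HFD libraries 22, 23, 50, 51 and 83, Lep was at 1792, 218, 1651, 202 and 820 TPM. HFD libraries 23 and 51 lay below HFD+drug library 62. Sfrp5, which fat cells secrete to restrain Wnt signals, was at 91.6, 42.7, 149, 56.1 and 65.8 TPM in HFD+drug libraries, against 44.2, 61.96, 22.3, 20.2 and 5.23 TPM in normal+drug libraries. Overlap came from HFD+drug libraries 26 and 54 and normal+drug libraries 2 and 5. Its log2 change was 1.61 with drug (adjusted p = 0.254) and 3.44 without (adjusted p = 0.00345), and the interaction was -1.83 (95% confidence interval -3.69 to 0.02). Sfrp5 was at 878, 125, 1055, 286 and 624 TPM in the HFD libraries, in the order given for Lep. HFD library 23 lay below HFD+drug library 27.

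Npr3, the clearance receptor for natriuretic peptides, was at 47.4, 28.2, 50.5, 23.9 and 41.5 TPM in HFD+drug libraries, against 11.7, 21.3, 11.1, 10.2 and 5.45 TPM in normal+drug libraries. The groups did not overlap but the gene missed the threshold (log2 change 1.66, adjusted p = 0.0907), against 2.82 without drug; it passed with library weights (adjusted p = 0.00144) and with the B cell covariate (0.0317). Inhbb, for the activin beta B subunit, stood at 37.5, 22.4, 36.7, 32.4 and 29.4 TPM in HFD+drug libraries, against 19.1, 20.9, 12.1, 20.02 and 29.03 TPM in normal+drug libraries. Normal+drug library 9 reached into the range of HFD+drug. Its log2 change was 0.65 with drug (adjusted p = 0.338) and 2.19 without (adjusted p = 0.000519), and the interaction was -1.55 (95% confidence interval -2.39 to -0.70, unadjusted p = 0.00121, adjusted p = 0.73). Of 13 adipokine genes none was called with drug (median 0.22), and without drug 7 of 15 were higher and 1 lower (median 0.76). Of 7 imprinted and fat expansion genes none was called with drug (median 1.26), and without drug 7 of 11 were higher (median 2.38). Over all tested genes, 1.1% were called with drug and 8.93% without, so the counts of these lists with and without drug are not read as a contrast.

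Apart from Cfd, the further genes given here were picked as the largest changes without drug, which favours smaller values with drug. Prr32, the largest increase, changed by 3.74 without drug (adjusted p = 0.00281). It was also called with drug (2.86, adjusted p = 0.0389), where the filter favoured it. That call ended in 4 of the 5 fits without 1 library that gave it a value. The genes that follow were not called with drug. Prelp, a matrix proteoglycan, had a log2 change of 1.40 with drug (adjusted p = 0.127) and 2.68 without. For Thbs1, a matricellular protein, the values were 0.84 (adjusted p = 0.519) and 2.64, and for Tmem45b 1.26 (adjusted p = 0.052) and 2.38. Tmem45b did not overlap between the groups with drug, and it passed with the filter at 20 TPM (adjusted p = 0.0437), without HFD+drug library 26 (0.0447) or normal+drug library 5 (0.0327), and with library weights or the B cell covariate (0.00218 and 0.0135). Among genes lower without drug, Cyp2e1, a cytochrome P450, had a log2 change of -0.94 with drug (adjusted p = 0.22) and -1.86 without, and Cyp2f2, another, -0.81 (0.58) and -2.60. For B3galt2, a galactosyltransferase, the log2 change was -0.79 with drug (adjusted p = 0.239) and -1.60 without. Nat8l, which makes N-acetylaspartate, was at -0.52 (0.216) and -1.19, Sephs2, an enzyme of selenium supply, at -0.64 (0.134) and -1.17, and Tuba4a, an alpha-tubulin, at -0.35 (0.837) and -1.62 on the same scale. Cfd, which encodes adipsin, averaged 27320 ± 8975 TPM in HFD+drug and 36960 ± 11080 TPM in normal+drug libraries (log2 change -0.44, adjusted p = 0.73), with a change of -1.37 without drug. The calls of Tuba4a and Cfd without drug each ended in 7 of the 10 fits that left out a library (adjusted p up to 0.116 and 0.125). Those of the other genes in this paragraph held in every such fit.

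For several genes, picked after their values were seen, the estimated changes in both pairs were close. The log2 change of Acsl1 was -1.52 with drug and -1.51 without, with a 95% confidence interval of the difference of -0.89 to 0.88. That of Pde3b was -0.90 and -0.91 (interval of the difference -0.60 to 0.62), and that of Calm3 0.58 and 0.57 (-0.40 to 0.40). Dgat1 changed by -1.17 with drug and -1.48 without, Idh2 by 0.89 and 1.01, and Bcat2 by -1.07 and -1.12; their intervals of the difference also included 0. The genes taken by smallest p among uncalled increases without overlap included Sncg, which encodes gamma-synuclein. It was at 677, 556, 895, 983 and 649 TPM in HFD+drug libraries, against 318, 484, 325, 269 and 97.2 TPM in normal+drug libraries. It missed the threshold with drug (log2 change 1.47, adjusted p = 0.0662) and was called without (1.68, adjusted p = 0.0103); it passed with drug without normal+drug library 5 (adjusted p = 0.0294), with library weights (0.00134) and with the B cell covariate (0.0071). The others of this kind were Ech1, Steap4, Rex1bd, Coa3, Cavin3, Hcfc1r1 and Cstb, with log2 changes of 0.33 to 1.08 with drug and 0.48 to 2.002 without.

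With drug but not without, 31 genes were called. Of these, 22 had an interaction with an unadjusted p under 0.05 (5.27% over all tested genes), and none passed adjustment. Being called in 1 pair and not in the other favours a large interaction in the same libraries. That count and the intervals of these genes are therefore given as a description. Fasn averaged 124 ± 35 TPM in HFD+drug and 522 ± 264 TPM in normal+drug libraries, beside 254 ± 148 TPM in HFD and 239 ± 72 TPM in normal libraries. Its log2 change was -1.98 with drug and -0.05 without, and the interaction was -1.93 (95% confidence interval -3.06 to -0.80, unadjusted p = 0.00214, adjusted p = 0.73). Vegfa averaged 121 ± 28 TPM in HFD+drug and 284 ± 77 TPM in normal+drug libraries, beside 175 ± 41 TPM in HFD and 195 ± 55 TPM in normal libraries (interaction -1.06, 95% confidence interval -1.73 to -0.39). For both genes the mean was highest in normal+drug and lowest in HFD+drug. Pcx was of the same kind, with a log2 change of -0.24 without drug and an interaction of -0.76 (-1.36 to -0.16). Apmap, also called with drug only, had a log2 change of -0.61 without drug, and its interaction interval (-1.12 to 0.09) included 0.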

How the data were processed

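Per the labels' protocols, total RNA came from an RNeasy kit and libraries from the NEBNext Ultra kit. The authors deposited 1 table of values for 55270 genes, taken here as TPM. A library total was 998276, which alone does not tell TPM from a scaling that leaves out gene length. Per the submitters' processing notes, the tools were DESeq2 1.32.0, featureCounts 2.0.3, STAR 2.7.8 and FastQC 0.11.9, and the build GRCm39; annotation and strand setting are not given in the sources used here. A TPM value is a share of a library, so abundant transcripts of other cells lower all others. Depth was approximated from the step of low values times exon length (GENCODE M21, by symbol, 49067 genes).

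All 20 libraries of the tissue label (4 groups of 5) were fitted together as log2(TPM + 1) with limma 3.58.1 in R 4.3.3 (trended, robust), which understates changes of low genes. With drug, genes with 10 TPM in at least 5 of 10 libraries were tested, and without drug and for the interaction, those with 10 TPM in at least 5 of 20. Benjamini-Hochberg adjustment ran over every gene tested in a comparison (threshold 0.05). SD is given over the 5 libraries of a group. SE and confidence intervals come from the limma fit, in which the 4 groups share 1 estimate of the spread per gene.

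Genes, members and 46 lists were chosen with earlier results of these data known. Named genes were the 10 largest non-overlapping changes in each direction with a mean of at least 50 TPM (filled up by smallest p), up to 3 members of each list with at least 2 called, a set list of fat and macrophage genes, the 8 largest changes in each direction without drug, and others said to be named after their values were seen. No pair of libraries was identical. The fit was tested on simulated data. Some genes that the rule names are not reported here.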

Additional observations from a re-analysis of the deposited data

Results flagged for a closer look

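Chance alone puts about 1 in 20 groups of 5 past the criterion used here, a gap between the highest or lowest library and its nearest neighbour that is large relative to the whole range (Dixon's test). Of 126 groups checked, over named genes and summed marker lists, 2 passed it, both for a named gene. Ucp1, which lets thermogenic fat cells burn fuel as heat, was at 191.9 TPM in HFD+drug library 62, against 0.312 to 4.27 TPM in the other 4 libraries of that group. That library also had the highest sum of skeletal muscle genes (25250 TPM) and the highest share of mitochondrially encoded genes (40.5%), and the part of either in the Ucp1 value was not tested. Mest, an imprinted gene of fat expansion, was at 10.84 TPM in normal+drug library 5, against 1.29 to 2.52 TPM in the other 4 libraries of that group.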

How the results depend on the processing

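The called genes kept their direction under every alternative that gave them a value, but their number did not keep its size. From 75 with drug, it was 42 with no filter, 41 with quantile normalization, 5 with library medians made equal, 8 with the compared groups fitted alone, 49 with the muscle covariate and 0 without the libraries rich in B cell transcripts, which left 2 HFD+drug and 1 normal+drug library. It was 1182 with library weights, 210 with the B cell covariate, 212 without the muscle-rich libraries and 500 without these and with the B cell covariate (both chosen after seeing the data). Leaving out each library gave 26 to 129. Without drug, the 693 genes were 324 with groups alone, 1112 with mitochondrially encoded genes removed, 3498 with library weights, 1209 without muscle-rich and 0 without B cell-rich libraries, and 245 to 1017 leaving out each library. The interaction had 1 gene with the filter of 1 TPM, 178 with library weights and 0 to 1 leaving out each library. The share of the genes called without drug that had the same direction with drug was 84.2% with library weights and 90.2 to 97.8% leaving out each library; it had no value without B cell-rich libraries, where no gene was called. The 4 lists with at least 2 called members were 1 with no filter, 2 with the filter of 1 TPM, 1 with quantile normalization, 0 with medians made equal, 1 with mitochondrially encoded genes removed, 33 with library weights, 0 with groups alone, 11 with the B cell covariate, 2 with the muscle covariate, 0 without B cell-rich and 8 without muscle-rich libraries, 21 without muscle-rich libraries and with the B cell covariate, and 1 to 6 leaving out each library. The cause was not tested.

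Directions turned in genes that were not called in the comparison concerned. Adipoq with drug was 0.006296 with quantile normalization, 0.02085 with medians made equal, 0.007624 with mitochondrially encoded genes removed, 0.19 with library weights, 0.22 without muscle-rich libraries and 0.17 for these with the B cell covariate. Fasn without drug was 0.03475 with medians made equal, 0.03779 with the B cell covariate, 0.75 without B cell-rich libraries, 0.06708 without muscle-rich libraries and 0.27 for these with the B cell covariate. Itgax without drug was 0.16 with quantile normalization, 0.06026 with library weights, 0.54 with the B cell covariate and 0.33 for that covariate without muscle-rich libraries. With drug, Ccl2 was -0.25 with library weights and -0.11 with the muscle covariate, and Cyp26b1 was 0.09059 with library weights, 0.12 without muscle-rich libraries and 0.16 for these with the B cell covariate. Trem2 without drug was -0.02625 with the B cell covariate and -0.18 for that covariate without muscle-rich libraries. With drug, Tuba4a was 0.01042 with the muscle covariate, and without B cell-rich libraries Gpx3 was -0.11 and Thbs1 -0.22. Leaving out each library gave, with drug, -0.19 to 0.12 for Adipoq, -0.21 to 0.25 for Dgat2, -0.08265 to 0.21 for Gpx3 and -0.23 to 0.41 for Ccl2, and without drug, -0.32 to 0.20 for Fasn and -0.36 to 0.10 for Itgax.

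No paired analysis was possible because the compared groups share no title number within this tissue label. Depth limits the comparison of genes near 0 TPM.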
